A study of Homo sapiens with 4 samples.

Results

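The mRNAs described here encode parts of the machinery that imports proteins into mitochondria and of the complex that shapes the inner mitochondrial membrane. They are 9 nuclear genes, C19orf70 (now named MICOS13), IMMT, TIMM13, TIMM44, TOMM40, TIMM50, TOMM22, TIMM10 and TOMM20. They were selected on the log2 folds of LARP4 eCLIP over input described below, and each was taken as a fixed stranded window of hg19. LARP4 is an RNA-binding protein, and its binding was measured by eCLIP, in which ultraviolet light links a protein to the RNA it touches and an antibody recovers the protein with fragments of that RNA. The cells were HEK293, an established human embryonic kidney line, exposed to 400 mJ/cm2 at 254 nm, and the labels call the replicates biological. LARP4 eCLIP, with antibody to the cells' own LARP4, had 2 replicates. Size-matched input, which is RNA of the same gel range without the antibody step, had 2 replicates and entered as the denominator of the values. The windows held 101 of the 171755 clusters of replicate 1, 103 of the 191899 clusters of replicate 2, and 37 (0.52%) of the 7153 regions in the authors' list for the whole series. A cluster is a stranded interval for which the authors give a log2 fold over input and a −log10 p of enrichment. A fold is relative to input, so it does not show how abundant an mRNA is, and the reads behind a cluster are unknown.

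Nearly all mitochondrial proteins are made in the cytosol and imported. The TOM complex forms the entry gate of the outer membrane, the small TIM chaperones guide hydrophobic proteins through the space between the membranes, and the TIM23 complex brings proteins with a presequence into the matrix. MICOS sits at the crista junctions of the inner membrane and keeps cristae attached. LARP4 belongs to the La-related family, binds the poly(A)-binding protein and the poly(A) tail, and is known for protecting mRNA from decay.

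By the median of each gene, LARP4 eCLIP clusters lay highest above input in 4 of the 9 gene windows. They were lower in TOMM40 and TIMM50 and nearest the whole list's level in TIMM44, TOMM20 and IMMT. A cluster was counted as enriched at a log2 fold of at least 3 (8-fold) and a −log10 p of at least 3. In replicate 1, 39 of 101 clusters (38.6%) were enriched, where the share over all clusters was 5.01%. In replicate 2, 37 of 103 (35.9%) were enriched, where the share over all clusters was 5.50%. The folds chose the genes, so these shares describe the members and were not tested. At a log2 fold of at least 1 (2-fold) with the same limit on p, 68 clusters (67.3%) passed in replicate 1 and 71 (68.9%) in replicate 2, beside 14.0% and 13.7% of all clusters, and each of the 9 genes had such a cluster in both replicates.

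The genes differed widely in the median log2 fold of their clusters. C19orf70, a small MICOS subunit, was highest with medians of 5.17 in replicate 1 and 5.36 in replicate 2, or 5.27 ± 0.14 (SD, n = 2). TIMM13, a small TIM chaperone, followed with 4.15 and 3.88 (4.01 ± 0.19), and its replicates did not overlap with those of C19orf70. TIMM10, also a small TIM chaperone, had 2.88 and 4.86 (3.87 ± 1.40), a spread that reached past both TIMM13 and TOMM22, so its place in the order is not settled. TOMM22, a receptor of the TOM complex, had 4.11 and 3.18 (3.64 ± 0.66). Its replicate 1 value lay between the values of TIMM13, so the order of TIMM13 and TOMM22 is not settled either.

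The other 5 genes had lower medians. TOMM40, the channel of the TOM complex, had 2.18 and 2.52 (2.35 ± 0.24), below both values of TOMM22. TIMM50, the TIM23 subunit that receives presequences, had 2.27 and 1.75 (2.01 ± 0.37) and overlapped with TOMM40. TIMM44, which tethers the import motor to the TIM23 complex, had 1.70 and 1.31 (1.50 ± 0.27). TOMM20, the main presequence receptor of the TOM complex, had 1.08 and 1.64 (1.36 ± 0.40), and IMMT, the core MICOS subunit also called MIC60, had 1.07 and 1.27 (1.17 ± 0.14). TIMM44 overlapped with TOMM20, and TOMM20 with IMMT, so neighbours at this end of the order did not differ beyond their spread. The medians of all clusters were 1.28 in replicate 1 and 1.30 in replicate 2, a level that the replicates of TOMM20 straddled and that both replicates of IMMT lay just under.

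**Figure D1:**
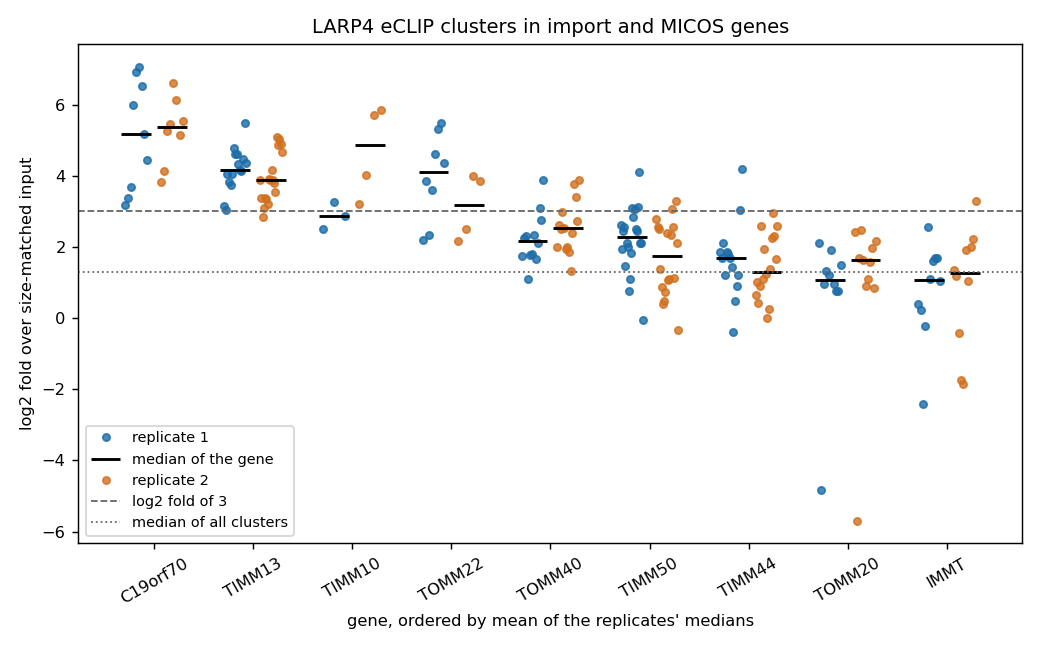
Log2 fold over size-matched input (vertical axis) of every cluster in the 9 genes (horizontal axis), with a point per cluster, blue for replicate 1 and orange for replicate 2, and a black bar at each gene's median. C19orf70 lies wholly above the dashed line at a log2 fold of 3, TIMM13 has 1 cluster below it, and TOMM20 has none above it and 1 cluster far below input in each replicate.

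Among the TOM complex mRNAs, TOMM22 carried the highest folds and TOMM20 no series-wide region. TOMM22 (chromosome 22, plus strand, window 39077900 to 39080900) had 8 clusters in replicate 1, of which 6 were enriched, and 4 in replicate 2, of which 2 were enriched. Its 4 series-wide regions formed 2 stretches. In the 5′ stretch, 3 touching regions (39078924 to 39078966, 39078967 to 39078990 and 39078991 to 39079000) rested on replicate 1 clusters with log2 folds of 3.60, 4.60 and 5.32. A single replicate 2 cluster at 3.99 lay behind all of them, so replicate 2 could not show whether the fold rose across the stretch. The middle and the last of these tied for the best region of the gene by its lower replicate, at 15.9-fold, with means of 4.30 ± 0.43 and 4.66 ± 0.94 (SD, n = 2).

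The 3′ stretch of TOMM22, a region of 159 bases at 39079954 to 39080112, had 4.35 and 3.86 (4.11 ± 0.35). The replicate 1 cluster with the gene's highest fold, 18 bases at 39079772 to 39079789 with a log2 fold of 5.47, had no overlapping cluster in replicate 2. RefSeq on GRCh38 lists 6 pseudogenes named after TOMM22, 4 each after TOMM40 and TOMM20 and 1 after IMMT. The sources used here do not say how reads matching several copies were treated, so these genes' folds are uncertain in that respect.

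TOMM40 (chromosome 19, plus strand, window 45394400 to 45407000) was above input in all of its clusters, 12 in replicate 1 and 14 in replicate 2. This was usual, as only 5 of 101 and 5 of 103 member clusters lay below input. Most clusters of the whole lists, with medians of 1.28 and 1.30, were above input too. The folds of TOMM40 were highest at its 3′ end. The region at 45406684 to 45406849 stood at 3.88 in replicate 1 and 3.90 in replicate 2 (3.89 ± 0.01, SD, n = 2), and the region at 45406479 to 45406581 had 3.08 and 3.40 (3.24 ± 0.22). Between them lay clusters at 2.76 and 2.73, just under the threshold. The clusters nearest the 5′ end, from 118 bases into the window, had 1.73, 2.24 and 2.30 in replicate 1 and 1.99, 2.62 and 2.52 in replicate 2. Their −log10 p reached 25.4 and 23.3, so the authors' enrichment p was small there although the fold stayed below 8.

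TOMM20 (chromosome 1, minus strand, window 235272600 to 235292300) had 10 clusters in replicate 1 and 11 in replicate 2, and none was enriched. Its best supported cluster lay at the 5′ end, at 235292014 to 235292149 in replicate 1 and 235292004 to 235292148 in replicate 2. The log2 folds there were 2.10 and 2.42, with −log10 p of 23.5 and 26.2, the largest p support of the gene in both replicates. The highest fold of replicate 2, 2.47, was in a cluster of 17 bases with a −log10 p of 4.54. Its replicate 1 partner had 1.34. TOMM20 thus held clusters above input at both ends of its window without reaching 8-fold in either replicate.

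The small TIM mRNAs held more regions than the other functional groups, 19 of 37. TIMM13 (chromosome 19, minus strand, window 2425600 to 2427900) held 16 of them, and 15 of 15 clusters in replicate 1 and 17 of 18 in replicate 2 were enriched. The remaining cluster of replicate 2 had a log2 fold of 2.85. The 16 regions formed 5 stretches and covered 562 bases, or 24.4% of the window. Their authors' log2 folds ran from 3.14 to 5.20, with a median of 4.27 beside 3.65 over all 7153 regions.

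Within TIMM13, the mean fold of the regions was lower on the 5′ side than towards the middle of the window. The regions nearest the 5′ edge, at 2427516 to 2427540 and 2427474 to 2427515, had means of 3.27 ± 0.17 and 3.22 ± 0.24 (SD, n = 2). The region with the highest mean had 32 bases at 2426670 to 2426701, with 5.50 in replicate 1 and 4.90 in replicate 2 (5.20 ± 0.42), or 29.8-fold in the lower replicate. In replicate 2 other clusters were higher, at 5.09 (2426749 to 2426779) and 5.03 (2426702 to 2426721). The most 5′ cluster of replicate 2, 2427728 to 2427783, had 3.88, with no overlapping cluster in replicate 1 and no series-wide region. The last region, at 2426588 to 2426669, had 4.35 and 4.67 (4.51 ± 0.22). No cluster of either replicate lay in the 988 bases that followed, 42.9% of the window. RefSeq on GRCh38 places TMPRSS9 over part of TIMM13.

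TIMM10 (chromosome 11, minus strand, window 57295900 to 57298300) differed between replicates. It had 3 clusters in replicate 1, with log2 folds of 2.49, 3.25 and 2.88 from 5′ to 3′, and 4 in replicate 2, with 3.22, 4.01, 5.71 and 5.84. The region towards the 5′ end, at 57297649 to 57297684, was alike in both, at 3.25 and 3.22 (3.23 ± 0.02, SD, n = 2). At the 3′ side, the region at 57296291 to 57296348 had 2.88 in replicate 1 and 5.71 in replicate 2 (4.29 ± 2.00), and the touching region at 57296349 to 57296370 had 2.88 and 4.01 (3.44 ± 0.80). The same replicate 1 cluster, which was not enriched, lay behind both. The replicate 2 cluster at 5.84 (57296147 to 57296218) had no replicate 1 partner, so the high folds at the 3′ side of TIMM10 rested on replicate 2.

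The TIM23 mRNAs had folds above 8 at few places. TIMM50 (chromosome 19, plus strand, window 39971000 to 39981500) had 20 clusters in replicate 1 with 4 enriched, and 18 in replicate 2 with 2 enriched. Its touching regions at 39980401 to 39980478 and 39980479 to 39980549 had 3.14 and 4.11 in replicate 1. Replicate 2 had 1 cluster of 187 bases at 3.29 over both, giving means of 3.21 ± 0.11 and 3.70 ± 0.58 (SD, n = 2). Further towards the 5′ end, neighbouring clusters from 39978743 to 39978858 lay close to the threshold in both replicates, with 3.09 and 2.85 in replicate 1 and 2.33 and 3.08 in replicate 2. Neither is in the series-wide list. In the middle of the window, replicate 1 clusters between 39976354 and 39977135 had log2 folds of 0.76 to 2.11. Replicate 2 clusters between 39976330 and 39977134 had 0.40 to 2.40. The most 3′ cluster of TIMM50 lay at 39981038 to 39981095 in replicate 1 and 39981049 to 39981086 in replicate 2. It was just below input in both, at −0.05 and −0.33.

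TIMM44 (chromosome 19, minus strand, window 7991600 to 8008900) held 1 series-wide region, at 7991777 to 7991957. Its log2 folds were 4.18 (replicate 1) and 2.59 (replicate 2) (3.39 ± 1.12, SD, n = 2). No cluster of TIMM44 was enriched in replicate 2, where the highest of 16 was 2.96. In replicate 1, 2 of 14 were enriched, at 3.05 and 4.18, and they touched at the 3′ end of the window. The 8-fold level at TIMM44 was therefore reached in replicate 1 alone, although the 3′ end was the highest part of the gene in both replicates.

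The MICOS mRNAs lay at opposite ends of the order. C19orf70 (chromosome 19, minus strand, window 5678400 to 5681000) encodes a subunit that joins the MIC10 part of MICOS to the part built on IMMT. Every one of its 9 clusters in replicate 1 and 8 in replicate 2 was enriched, and its 9 regions in 4 stretches covered 370 bases, or 14.2% of the window. The fold rose along the window towards the 3′ side. The 5′ region at 5680471 to 5680518 had 3.17 and 3.83 (3.50 ± 0.47, SD, n = 2), and the next stretch, 5679695 to 5679774, had 3.68 and 4.15 (3.91 ± 0.33). The region at 5679356 to 5679384 had 5.995 and 5.26 (5.63 ± 0.52). In the 3′ stretch, the best piece by its lower replicate was only 4 bases, 5678656 to 5678659, at 6.92 and 6.61, or 97.6-fold in the lower replicate. It ranked 5 among the 7153 regions by the authors' fold, and the 12 bases next to it ranked 2. Beyond this peak the fold fell again to 5.17 and 5.14 at 5678523 to 5678598, and the last region, 5678449 to 5678522, had 4.44 and 5.55, with an SD of 0.78.

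IMMT (chromosome 2, minus strand, window 86371000 to 86423000) is the longest window, with 10 clusters in each replicate and no series-wide region. Its highest clusters lay at the 3′ end. Replicate 1 had 6 clusters between 86371239 and 86371821 with log2 folds of 1.03 to 2.57, and replicate 2 had 5 clusters between 86371125 and 86371827 with 1.06 to 3.29. The highest, 3.29 with a −log10 p of 7.81 at 86371125 to 86371233, was the only enriched cluster of the gene and had no partner in replicate 1. A cluster near the 5′ end, at 86422461 to 86422544 in replicate 1 and 86422476 to 86422549 in replicate 2, had 0.40 and 1.36. Replicate 1 also had 0.23 at 86408484 to 86408496 and replicate 2 had 1.18 at 86406733 to 86406735, and neither overlapped a cluster of the other replicate. In the rest of the window, 2 clusters of replicate 1 and 3 of replicate 2 were below input, from −2.41 to −0.21 and from −1.87 to −0.41, and none of these 5 overlapped a cluster of the other replicate.

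**Figure D2:**
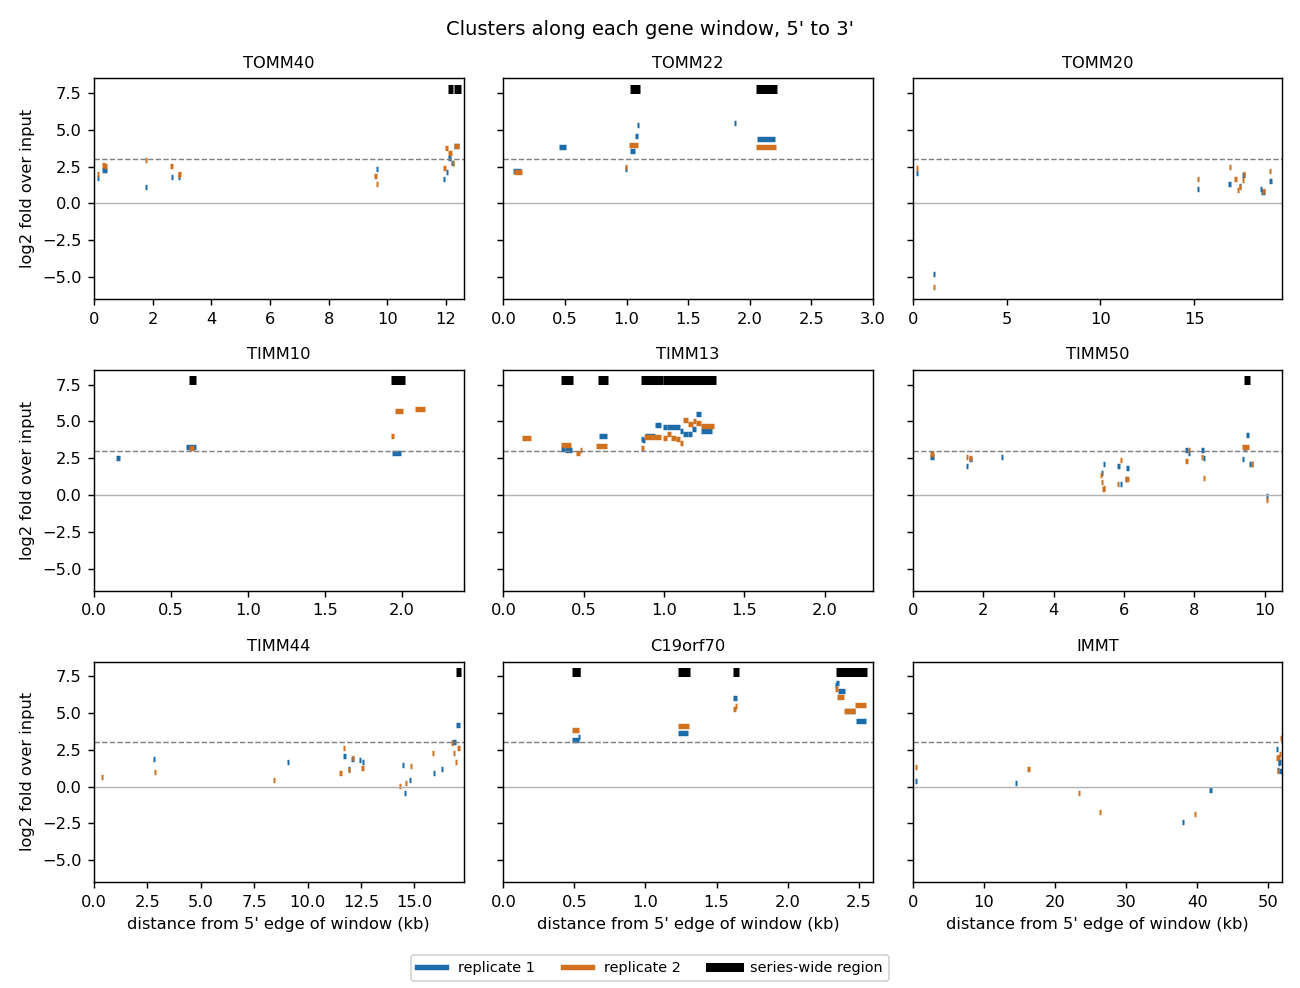
Clusters along the window of each gene, from the 5′ edge (left, distance in kb) to the 3′ edge, with the log2 fold over input on the vertical axis, blue bars for replicate 1, orange bars for replicate 2 and black bars at the top for series-wide regions. Short intervals are drawn slightly wider than they are, the dashed line is a log2 fold of 3, and regions sit at the 3′ end in TOMM40, TIMM50 and TIMM44 while those of C19orf70 are spread over its window and those of TIMM13 lie between 0.16 and 0.55 of its length.

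Where the regions lay along the window differed between genes with short and with long windows. Position was taken as 0 at the 5′ and 1 at the 3′ edge of the window, and windows under 5 kb were called short, a limit chosen after the values were seen. The 4 short windows (C19orf70, TIMM13, TIMM10 and TOMM22, 2301 to 3001 bases) held 32 of the 37 regions, at positions from 0.16 to 0.97. The 5 long windows (10.5 to 52.0 kb) held 5 regions, all of them between 0.90 and 0.98. In the short windows 31 of 35 clusters (88.6%) were enriched in replicate 1 and 31 of 34 (91.2%) in replicate 2. Most of these were in TIMM13 (15 and 17) and C19orf70 (9 and 8). In the long windows 8 of 66 (12.1%) and 6 of 69 (8.70%) were enriched. The shares over all clusters were 5.01% and 5.50%. A long window can hold more intron. Exon boundaries were not used here, and the part of intron in this difference was not tested.

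Within the long windows, the last 20% of the length had higher medians than the rest in some genes only. In TOMM40 the medians were 2.76 against 1.81 in replicate 1 and 3.40 against 2.01 in replicate 2. In IMMT they were 1.61 against 0.23 and 2.01 against −0.41. In TIMM44 the last 20% was lower in replicate 1, at 1.21 against 1.81, and higher in replicate 2, at 1.96 against 1.06. TIMM50 had 2.27 on both sides in replicate 1 and 2.11 against 1.39 in replicate 2, and TOMM20 had 1.20 against 0.95 and 1.61 against 1.68. A higher level towards the 3′ end in both replicates was thus present in TOMM40 and IMMT, from 5 to 9 clusters a side in TOMM40 and 3 to 7 in IMMT.

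The replicates placed clusters at the same sites in most of the 9 genes. Of the member clusters, 85 of 101 (84.2%) in replicate 1 and 84 of 103 (81.6%) in replicate 2 shared at least 1 base with a cluster of the other, where the shares over all clusters were 44.8% and 40.1%. The genes were chosen on the folds of these same lists, so the higher shares describe the members and were not tested. Every replicate 1 cluster of TOMM40, TIMM13 and C19orf70 had a partner, against 6 of 10 in IMMT and 9 of 14 in TIMM44. Of the 37 enriched replicate 1 clusters with a partner, 33 had an enriched one. The exceptions were 2 clusters each in TIMM50 and TIMM44. From replicate 2, 32 of the 37 enriched clusters had a partner and 28 an enriched one. The same counts were not made over all enriched clusters, so whether these are particular to the members is unknown. In TIMM13, 14 of its 18 replicate 2 clusters had a partner, and in TIMM10 1 of 4 enriched ones was enriched in both.

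At the 37 series-wide regions, log2 folds averaged 4.32 in replicate 1 and 4.24 in replicate 2, or 4.28 ± 0.06 (SD, n = 2). Replicate 1 was higher at 21 regions and replicate 2 at 16. The replicates lay within 1 log2 unit of each other at 32 regions (86.5%), where the share over all regions was 75.8%. The median gap was 0.60 log2 units beside 0.55 over all regions, so the typical gap was not smaller in the members. An enriched cluster was present in both replicates at 34 regions (91.9%), where the share over all was 74.9%. The 3 without were the region of TIMM44 and the 3′ pair of TIMM10. TIMM10 also had the largest gap, 2.83 log2 units. Touching regions often share a cluster, so the 37 regions are not independent: joined where they touch, they formed 17 stretches. C19orf70 and TIMM13 held 25 of the 37. As the genes were selected on these folds, the shares given here describe the members and were not tested.

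**Figure D3:**
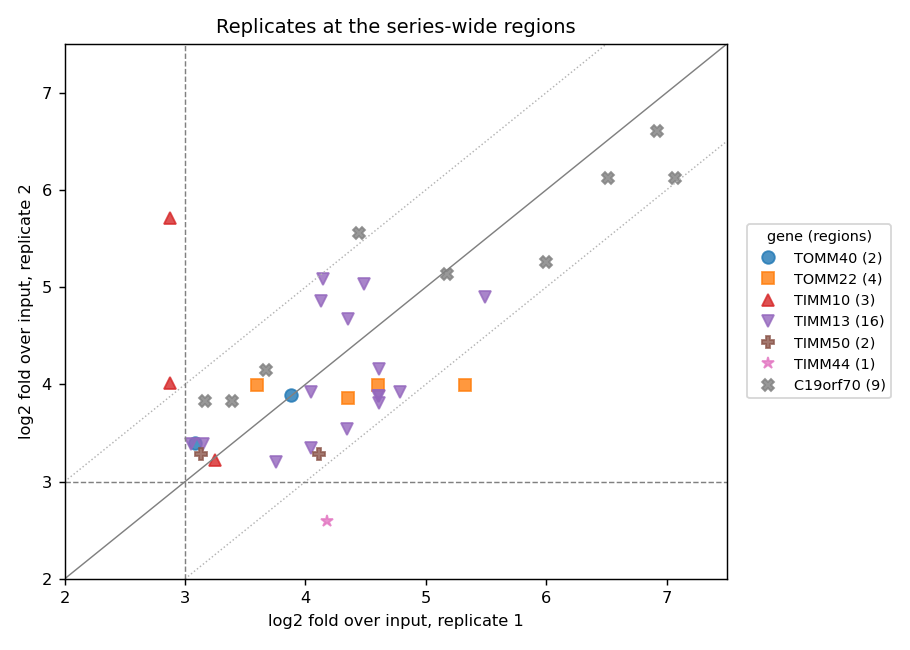
Log2 fold over input of the cluster with the longest overlap in replicate 1 (horizontal axis) and replicate 2 (vertical axis) at the 37 series-wide regions, with a symbol per region coded by gene. The solid line marks equal values, the dotted lines a gap of 1 log2 unit and the dashed lines a log2 fold of 3, and C19orf70 reaches the highest values in both replicates while a TIMM10 region lies farthest from the line.

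Clusters lay just outside the windows of TIMM13 and TIMM44, and no series-wide region lay there. No cluster of either replicate lay on the opposite strand of any of the 9 windows, and 7 windows had no cluster on their own strand within 1.5 kb outside. Upstream of TIMM13 there were 6 clusters in each replicate. The nearest, 450 and 456 bases away, had log2 folds of 2.90 and 2.85, the others had 1.59 to 2.85 and 1.76 to 2.55, and none was enriched. The clusters just inside that edge began 117 bases in at 3.88 in replicate 2 and 360 bases in at 3.15 in replicate 1. Downstream of TIMM44, replicate 1 had enriched clusters 733 and 1430 bases away at 3.23 and 4.08, and replicate 2 had 1 cluster 651 bases away at 2.49. Which transcript these belong to was not analysed here.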

How the data were processed

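The authors deposited 1 list of stranded intervals for each LARP4 eCLIP replicate and 1 for the whole series, with a −log10 p and a log2 fold over size-matched input per interval. The lists lack headers, so both meanings were read from the values. The −log10 p is capped at 400. Per the submitters' processing notes, the build was hg19 and the tools included STAR 2.7.6a, SAMtools 1.6, UMI-tools 1.0.0 and cutadapt 1.14. The caller of the clusters, the scaling for depth and the way the replicates were combined are not given here. With depth unknown, single folds carry no interval.

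Intervals overlapping a gene window by at least 1 base on its strand were taken, with starts converted to 1-based positions. The replicate's cluster with the longest overlap stands for a region. The authors' p compares 1 library with 1 input and was used only as a filter. Members and lists were chosen with earlier results of these data known, so no test was run. All 9 genes are named, and for each the region that is highest by its lower replicate is given. Other regions and clusters were chosen after their values were seen. The annotation given was GRCh38, used for names only, so exons, sequences and other genes of the pathway were not analysed here. The overlap steps were tested on simulated data. Python 3.11.15, numpy 2.4.6, pandas 2.3.3 and matplotlib 3.10.9 were used.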

Additional observations from a re-analysis of the deposited data

How the results depend on the processing

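With the threshold on the log2 fold raised to 4, the enriched clusters of the 9 genes fell from 39 to 23 in replicate 1 and from 37 to 16 in replicate 2, and with it lowered to 1 they numbered 68 and 71. With any p, or with clusters wholly inside the windows, both counts stayed at 39 and 37. The 37 series-wide regions became 17 when touching regions were merged and 21 at an authors' log2 fold of at least 4. Their mean position, 0.57 of the window, became 0.71 along the span of clusters and 0.69 with regions weighted by width. The middle of the 9 genes' medians, 2.35, became 2.53 with clusters weighted by width. That weighting moved C19orf70 from 5.27 to 4.79, TIMM50 from 2.01 to 2.46 and IMMT from 1.17 to 1.51, and it put IMMT above TOMM20 (1.46) and TIMM10 (4.29) above TIMM13 (4.11). With 1 replicate left out, the middle of the 9 genes' medians ranged from 2.27 to 2.52. The mean log2 fold at the regions ranged from 4.24 to 4.32. With 2 replicates, leaving 1 out cannot move a mean by more than the SD, so this shows nothing about stability. Of the other 27 alternatives, 12 moved a value, 0 changed its sign and 15 left it within 1.5 times (counts) or within the SD of the replicates. No paired analysis was possible because the inputs enter only through the authors' folds and no test was run.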

Other observations

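TOMM20 held the lowest cluster of the 9 genes, at the same place in both replicates. It lay on the strand of the mRNA near the 5′ end, at 235291144 to 235291193 in replicate 1 and 235291114 to 235291237 in replicate 2, with log2 folds of −4.83 and −5.69. In each replicate the next cluster towards the 5′ end was the best supported one of the gene, at 2.10 and 2.42. RefSeq on GRCh38 lists the small nucleolar RNA gene SNORA14B and the noncoding RNA gene LOC105379283 over part of TOMM20. Whether the low cluster comes from either was not tested.

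The deposited folds took few distinct values. Equal to 6 decimals, the 171755 folds of replicate 1 took 6312 values and the 191899 of replicate 2 took 6170, and 97.7% and 98.0% of clusters had a value that another cluster of the same list also had. Among the members this held for 84 of 101 and 92 of 103 clusters, and among the enriched members for 25 of 39 and 28 of 37. Clusters of different genes therefore often have exactly the same fold, as at 2.11 in TIMM50, TIMM44 and TOMM40 in replicate 1.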
